A study of Arabidopsis thaliana with 3 samples.

Results

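Genes bound by PISTILLATA (PI) or APETALA3 (AP3), proteins of floral organ identity, inside the gene and in no window before or after it numbered 529 of the 3132 Arabidopsis loci that the authors listed as bound targets (16.9%). They were found in the authors' tables of targets, 1 table for each protein, which give the highest peak score of each locus in 5 windows. These windows are the 3 stretches of 1000 bp upstream of a locus (0 to 1000, 1000 to 2000 and 2000 to 3000 bp), the gene itself, and the first 1000 bp downstream. A locus was kept when the inside window was the sole window with a score above 0 in every table that listed it. The loci were thus chosen by the window scores of both libraries, so these scores are given as a description and carry no test. Binding farther from a locus than these windows is not recorded in the tables. Such loci are called inside-only below.

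The data came from chromatin immunoprecipitation followed by sequencing (ChIP-seq) with an anti-GFP antibody on flowers of PI-GFP AP1-GR ap1 cal and AP3-GFP AP1-GR ap1 cal plants of the Ler background. In both, 35S:AP1-GR ap1-1 cal-1 is a system in which dexamethasone activates an APETALA1 fusion protein and starts many flowers at once. AP1-GR is driven by the constitutive 35S promoter; the promoters of the GFP fusions are not stated in the labels. Tissue was taken 4 days after 10 µM dexamethasone, at about stage 4 to 5. The PI-GFP and AP3-GFP libraries had 1 sample each, with no replicate, and were compared by the authors with 1 negative control of the same AP1-GR ap1 cal system without a tagged factor, whose values were not analysed here. The plants thus all lacked normal AP1 and CAL function apart from the induced fusion, and the tissue was whole flowers, in which cell types cannot be told apart.

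PI and AP3 are the B-class MADS-domain proteins of petal and stamen identity. They act as a heterodimer that joins other MADS-domain proteins in larger complexes and contacts DNA at CArG boxes. Plant regulatory DNA lies mostly upstream of genes, but introns hold it too: the floral gene AGAMOUS is the textbook case, with its regulatory elements in a large intron.

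The inside-only loci split almost evenly by listing. Both proteins were listed at 174 of the 529 loci (32.9%, exact 95% interval 28.9 to 37.1), PI alone at 171 (32.3%, 28.4 to 36.5) and AP3 alone at 184 (34.8%, 30.7 to 39). These intervals, and those below, cover counting error over loci only, not the spread between plants. Loci with their sole score in another window were listed in both tables more often, at 44.2%, 43.3% and 49% in the windows from the farthest to the nearest upstream and 45.7% downstream. The share was 83.9% at loci with several windows or different windows in the tables, 53.2% over all loci that were not inside-only and 49.7% over all 3132 loci. These shares are partly set by the rule, since a locus in both tables had to meet it in each. Of loci inside-only in at least 1 table, 84 had another window in the other table and count among those with several windows. Single listing is raised in this way in every class with a sole window. The larger contrast was in the share listed by AP3 alone. It was 34.8% inside the gene, against 16.9%, 18.5% and 13.8% in the same order upstream and 23.9% downstream. It was 4.95% at loci with several windows, 15.5% over all loci that were not inside-only and 18.8% over all loci. The interval at inside-only loci did not overlap those of the other windows, the nearest of which ran from 20.5 to 27.7 downstream. Shares listed by PI alone lay between 30.4% and 39% in the classes with a sole window, and at 11.1% with several windows. Unlike the other windows, the window inside the gene has no fixed length, and the part of gene length in the contrast was not tested. No test of the contrast itself was made, since loci share peaks and each listing rests on 1 library.

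**Figure D1:**
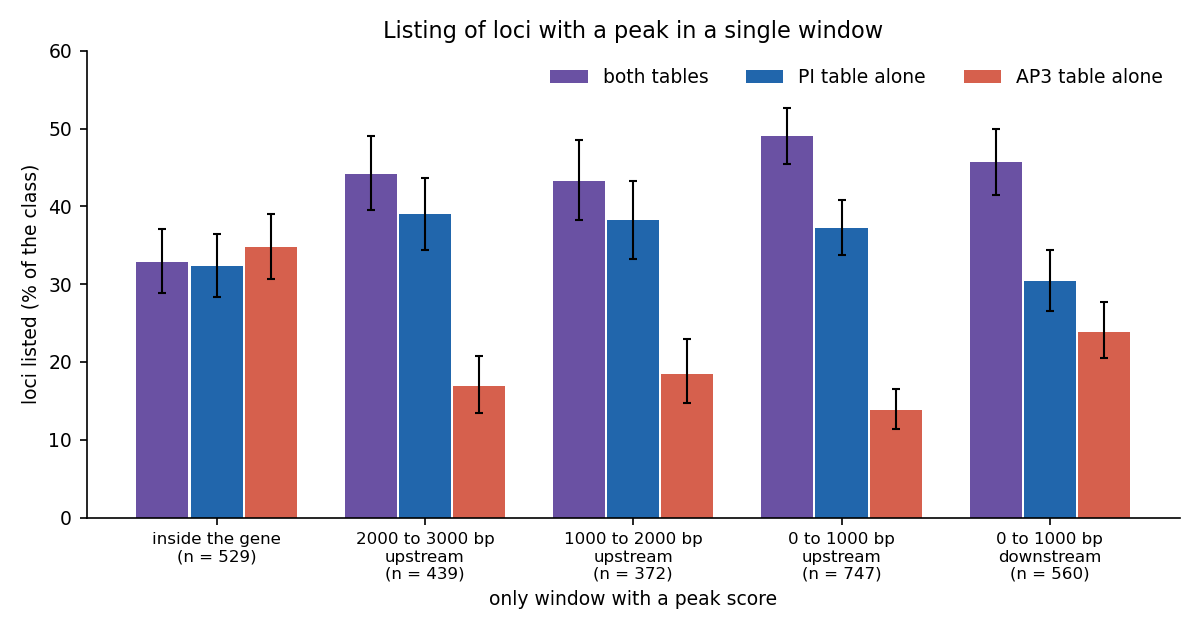
Share of loci (y axis, %) listed in both tables, in the PI table alone and in the AP3 table alone, for loci whose sole score was inside the gene or in 1 of the 4 other windows (x axis); error bars are exact 95% intervals. Inside-only loci had the lowest share in both tables, 32.9%, and the highest share listed by AP3 alone, 34.8%.

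An inside score was not rare among the other targets. In all, 754 loci had one in at least 1 table (498 for PI and 510 for AP3), and 176 of them had a second window with a score in the same table. The rule also left out 84 loci that were inside-only in one table and had a different or a second window in the other, 30 with PI inside and 54 with AP3 inside. Some floral MADS-box genes were of these mixed kinds. AGAMOUS (AG), the C-class gene of stamens and carpels, scored 2298 for PI and 577 for AP3 inside the gene but also 637 and 165 at 1000 to 2000 bp upstream. APETALA1 (AP1), a gene of meristem and sepal identity, was inside-only in the AP3 table (219) but had PI scores of 126 and 154 upstream beside its inside score of 870.

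Scores of inside-only loci were low for their lists. The score is the authors' own, named Poisson in the file headers, with no stated normalization, and it is used here to describe and rank peaks within a list. Its median was 70.3 at the 345 inside-only loci of the PI table (quartiles 46.2 and 122) and 43.4 at the 358 of the AP3 table (34.6 and 82.4). The other loci of the tables had medians of 91.7 for PI and 62.8 for AP3. They include loci with several windows, whose highest scores had medians of 150 and 82.8. Medians of the other classes with a sole window were nearer, at 79.2 to 84.6 for PI and 51.9 to 62.5 for AP3. Scores of at least 500 were held by 20 PI and 8 AP3 loci of the inside-only set (5.8% and 2.23%), against 8.49% and 4.8% of all loci in the tables. Among the other classes with a sole window they were 5.75% to 10.2% for PI and 3.84% to 5.22% for AP3, so the PI share lay within the range of those classes. Inside-only loci nevertheless reached the top of both lists, with 11 of the 100 highest loci for PI and 8 for AP3; they made up 13.6% and 16.7% of the tables.

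Low scores were concentrated where a single protein was listed. Inside-only loci in both tables had a median PI score of 112 (25.3 to 1716) and a median AP3 score of 75.7 (28.6 to 1078). Loci listed by PI alone had a median PI score of 50.6 and none above 330, and 81.3% of them lay below the median of all PI peaks, 88.1. Loci listed by AP3 alone had a median AP3 score of 36.1 and none above 170, and 90.2% of them, 166 of 184, lay below the median of all AP3 peaks, 58.6. Single listing therefore occurred mostly near the lower end of each list, and whether the other protein had signal there under the authors' threshold was not tested. Depth is unknown because read numbers were not analysed here. The same held for the other loci of the tables, whose medians were 54.4 when listed by PI alone and 39 when listed by AP3 alone. The lowest inside-only scores were 25.3 at RLK, 26.4 at HCF243 and 28.2 at VAMP721 for PI, and 26.6 at FPA and 27.6 at LGT9 and AT4G29360 for AP3. Just outside the rule, EXPB3 was left out by a second PI score of 29.4 upstream, DAD1 by one of 32.4 downstream, and AT3G12150 by a second AP3 score of 31.5 downstream.

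**Figure D2:**
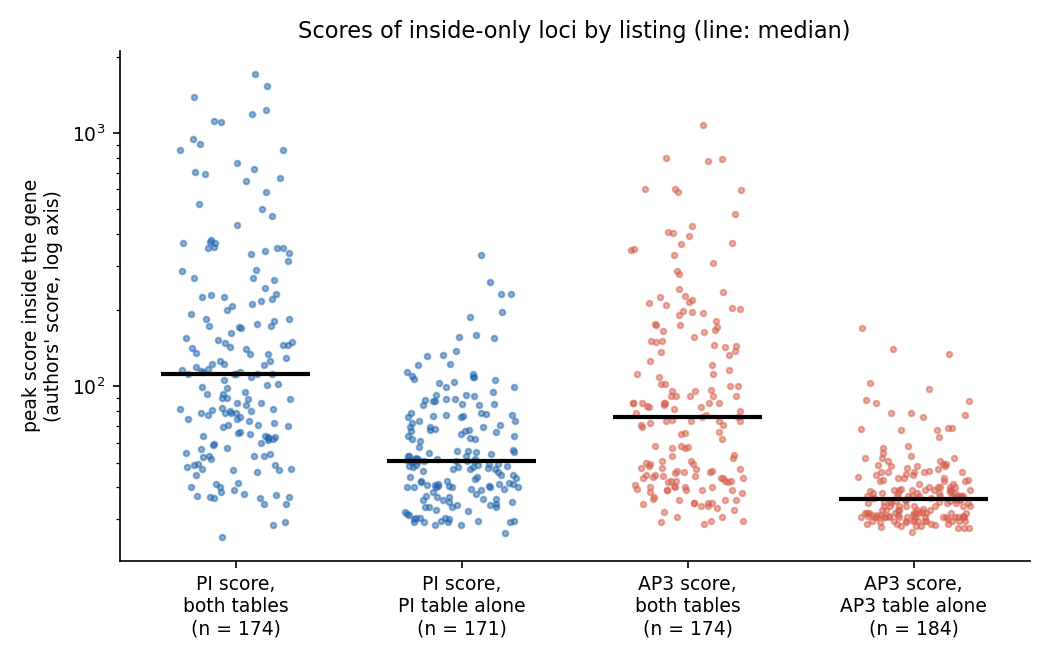
Peak score inside the gene (y axis, authors' score, log axis) of each inside-only locus, for PI and then AP3, split by listing (x axis); lines are medians. Medians were 112 and 50.6 for PI and 75.7 and 36.1 for AP3, and the loci listed by 1 protein alone reached at most 330 and 170.

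The highest inside-only score of PI was at AT2G42730, an F-box gene, with 1716 for PI and 365 for AP3. That PI peak, at chromosome 2, 17791298 to 17791863 (TAIR10, as are all positions), also lay 0 to 1000 bp upstream of the ribosomal protein gene RPL16A. EIN2 (AT5G03280), the membrane protein that transmits the ethylene signal, had 1542 and 330 at chromosome 5, 792650 to 793188, and the maxima of the 2 libraries were 1 bp apart. This was the 22nd highest PI peak, and it lay upstream of AT5G03285 and of IDH-V as well.

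AIL6 (AT5G10510), an AINTEGUMENTA-like gene that promotes floral organ growth and patterning, had 1387 for PI with 798 for AP3. Its PI peak spanned chromosome 5, 3317263 to 3318604, one of the widest of the set at 1342 bp, and belonged to no other listed locus. The maxima, at 3318184 for PI and 3318182 for AP3, were 2 bp apart. SAP (AT5G35770), STERILE APETALA, an F-box gene required for normal flower and ovule development, had 910 and 349 in a PI peak of 1231 bp at chromosome 5, 13937511 to 13938741. It too belonged to no other locus. TGA10 (AT5G06839), a bZIP gene that acts in anther development, scored 858 (PI) and 136 (AP3). Its PI peak, chromosome 5, 2123461 to 2124206, again belonged to no other locus. AIL6, SAP and TGA10 are genes of flower development whose listed binding lay within them, and both proteins were listed at each.

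LSH2 (AT3G04510), of the ALOG family of plant transcriptional regulators, scored 1237 (PI) and 600 (AP3), with the PI peak at chromosome 3, 1216483 to 1217178. The other PI scores among the 10 highest were 1188 at AT2G03290, a gene for an emp24-type protein of vesicle transport, 1122 at CYP81F3, a cytochrome P450 gene, 1111 at AT3G14220, a GDSL-type lipase gene, and 946 at AT5G25580, annotated by its likeness to aminoacyl-tRNA synthetases. Their AP3 scores were 432, 369, 791 and 776. At AT2G03290 and AT5G25580 the maxima of the libraries fell on the same base.

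The highest inside-only locus for AP3 was AT1G74440, a gene without a known function in the authors' annotation, with 765 for PI and 1078 for AP3. The peak, at chromosome 1, 27976966 to 27977556 in the PI list, was also listed inside MYB95, a MYB gene. Further loci among the 10 highest for AP3 were AT1G40104, with 142 for PI and 605 for AP3, and COAD, which encodes an enzyme of coenzyme A synthesis, with 378 and 595. MTACP-1, a mitochondrial acyl carrier protein gene, had 353 and 584, and SINAT2, a ubiquitin ligase gene, had 351 and 482. At these 5 loci the AP3 score was the higher, which was so at 49 of the 174 inside-only loci in both tables. Scores of the libraries are not on a common scale, so this order says nothing about the amount of either protein on the DNA.

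At inside-only loci a high PI score tended to go with a high AP3 score. Over the 174 in both tables the rank correlation (Spearman's rho) was 0.73. Pearson's r of log2 scores was 0.791, or 0.786 without the 2 loci farthest from the median PI score. Over the other 1384 loci in both tables these were 0.701 and 0.749 for the highest scores. The points share the 2 libraries and the 1 control, neighbouring loci share peaks, and the values are descriptions across loci. The ratio of PI to AP3 score lay below the median of all 1558 shared loci at 93 of the 174 (53.4%), against 49.4% of the others. AT1G31760, a SWIB-domain gene, had the highest ratio, with 338 for PI and 49.3 for AP3. TGA10 and AT3G22104, an NPH3-related gene (226 and 36), followed. The lowest ratios were at AT1G40104, at HAM3 (AT4G00150), a GRAS gene of shoot meristem maintenance, with 56.6 for PI and 213 for AP3, and at GRF8 (AT5G65430), a 14-3-3 protein gene, with 63.5 and 197.

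**Figure D3:**
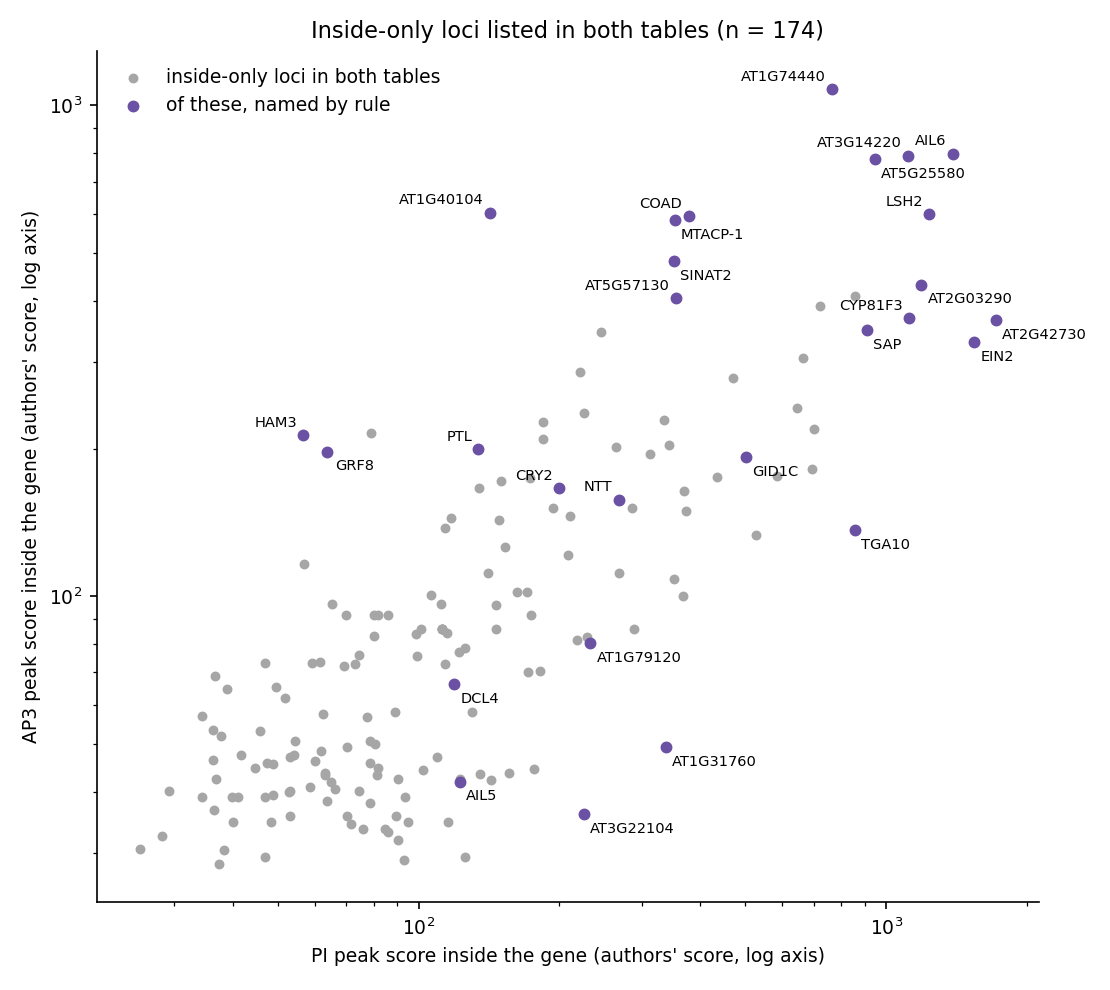
AP3 score (y axis) against PI score (x axis), both inside the gene on log axes, for the 174 inside-only loci in both tables; coloured points are genes named by rule. AIL6, LSH2 and AT3G14220 lie at the upper right, TGA10 and AT1G31760 toward the PI side, and AT1G40104 and HAM3 toward the AP3 side.

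Where both proteins were listed, their peaks mostly coincided. A locus was tied to a peak when just 1 peak of its chromosome had its score, which was so for 238 of 345 PI and 174 of 358 AP3 loci. Low scores repeat most, so weak loci are underrepresented among these. Of these, 129 PI peaks (54.2%, 47.6 to 60.7) and 121 AP3 peaks (69.5%, 62.1 to 76.3) overlapped a peak of the other library by at least 1 bp. These shares count loci, which stood on 233 distinct PI and 169 distinct AP3 peaks. Over all peaks of the lists the shares were 55.3% and 69.5%. Over the peaks that could be tied to a listed locus, the closer comparison, they were 61.4% and 83.8%, above the inside-only shares. Among loci in both tables, 129 of 135 PI peaks and 121 of 123 AP3 peaks overlapped, and among loci in 1 table alone 0 of 103 PI and 0 of 51 AP3 peaks did. These zeros follow nearly from the listing itself, since an overlapping peak of the other protein would normally list the locus in both tables. Both peaks were tied for 108 loci and overlapped at 106 (98.1%, against 94.5% of other loci in both tables). The distance between their maxima had a median of 14 bp (quartiles 2 and 55.5 bp), with 78 of 106 within 50 bp and 14 on the same base. At the other loci the median was 20.5 bp. Inside-only loci in both tables had to score in the same window in each, which was not required of the other loci. The contrasts in overlap and distance are thus partly set by the rule.

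Some loci had maxima farther apart. At AT4G31980 the PI and AP3 maxima lay 1091 bp apart in separate peaks. At AT1G27100, the other locus without overlap among those tied to a peak in both libraries, the maxima lay 135 bp apart. AT5G57130, related to heat shock proteins by annotation, had overlapping broad peaks of 1194 bp for PI and 1292 bp for AP3 with maxima 456 bp apart, the largest distance between overlapping peaks. AT1G79120 held the widest PI peak of the set, 2508 bp at chromosome 1, 29763472 to 29765979, with maxima 351 bp apart.

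Width followed listing. Tied PI peaks had a median width of 392 bp at loci in both tables and 257 bp at loci listed by PI alone; tied AP3 peaks had 353 bp and 169 bp. Over the whole lists the medians were 335 bp for PI and 257 bp for AP3. The widest AP3 peak of the set ran against this: 2678 bp at AT1G27570, a phosphatidylinositol kinase-type gene listed by AP3 alone with the highest score of that kind, 170, at chromosome 1, 9579381 to 9582058. The peak at G18F, an autophagy gene listed by AP3 alone (67.1), was 1096 bp wide.

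Being inside a gene did not mean being far from other genes. The tied peak also held the score of another listed locus at 149 of 238 inside-only PI loci (62.6%, 56.1 to 68.8) and 116 of 174 AP3 loci (66.7%, 59.1 to 73.6). These shares were lower than in the 4 other window classes, where they were 85.7%, 76.6% and 79% upstream, from the farthest to the nearest window, and 82% downstream for PI. For AP3 they were 87.4%, 79.1% and 83.5% upstream and 84.6% downstream. The peak lay upstream of another locus, in any of the 3 upstream windows, for 126 PI loci (52.9%) and 93 AP3 loci (53.4%), and 0 to 1000 bp upstream for 38 and 32 (16% and 18.4%). The label of binding only inside the gene thus describes the position relative to 1 locus. Among the tied loci, 89 for PI (37.4%) and 58 for AP3 (33.3%) had a peak that no other listed locus shared. When loci with repeated scores were included, which can join loci at different peaks, 73.9% of PI and 83.2% of AP3 loci had their score at another locus. AIL6, SAP, TGA10, NTT, PTL and GID1C were among the tied loci whose peak no other listed locus shared, in both libraries. The neighbours at the shared peaks included 2 genes of the gene lists described below. The PI peak of AT2G41233 (52.2) lay 1000 to 2000 bp upstream of ORS1, a regulator of organ growth, and the AP3 peak of AT3G20730 (28.1) lay 0 to 1000 bp downstream of the Polycomb gene FIE.

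**Figure D4:**
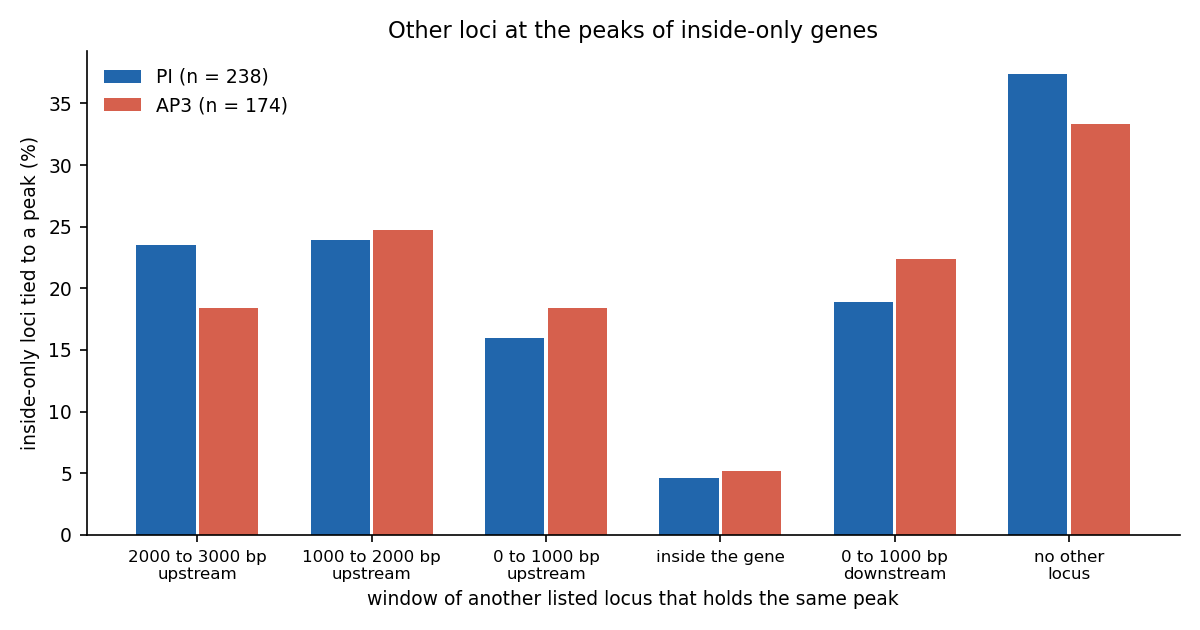
Share of inside-only loci tied to a peak (y axis, %) whose peak also held the score of another listed locus, by the window of that other locus (x axis), for PI and AP3; a peak can count in several windows. No other locus shared the peak for 37.4% of PI and 33.3% of AP3 loci.

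Some peaks counted for several inside-only loci. A single peak (PI score 112, AP3 score 85.7) was listed inside AT5G09460 to AT5G09463, 4 loci of which the first encodes a protein related to SAC51, a transcriptional regulator. FLA16, a fasciclin-like arabinogalactan protein gene, shared its PI score of 231 with the long non-coding RNA locus AT2G35859. Such loci cannot be told apart by their scores.

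Genes of 11 lists on flower development, hormones, chromatin and housekeeping were set beside the inside-only loci. Of their 425 genes 171 were listed targets (40.2%) and 26 were inside-only (6.12%), against 10.6% and 1.83% of the 27562 protein-coding genes of the reference table. Among listed loci alone, 26 of these 171 were inside-only, beside 529 of all 3132 (16.9%). The lists were drawn up with earlier results on these data known, so the counts are descriptions. Among 39 MADS-box genes 27 were listed and 2 were inside-only, both flowering repressors of the FLC clade and both in a single table: AGL31 (AT5G65050, also MAF2), with 141 for AP3 at chromosome 5, 25982398 to 25982734, and MAF1 (AT1G77080) with 37 for PI. Another 12 MADS-box genes had an inside score but did not meet the rule.

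The petal and stamen list gave 3 of 34 genes, all in both tables. PTL (AT5G03680), PETAL LOSS, the trihelix gene that limits growth between sepals and orients petals, scored 134 (PI) and 199 (AP3) with the PI peak at chromosome 5, 958819 to 959290, and both maxima on the same base. AIL5 (AT5G57390) had 122 and 42, and AIL6 is described above. The carpel list gave 2 of 27 genes: NTT (AT3G57670), a zinc finger gene of the transmitting tract, with 268 and 157 and both maxima on the same base, and SHI, a regulator of auxin synthesis in the style, with 37.7 for PI alone. The flowering list gave 1 of 46, the blue light receptor gene CRY2 (AT1G04400), with 199 and 166 at chromosome 1, 1188128 to 1188593.

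Hormone genes other than auxin gave 6 of 64. EIN2 had the highest score. GID1C (AT5G27320), a gibberellin receptor gene, scored 502 (PI) and 192 (AP3) with the PI peak at chromosome 5, 9628943 to 9629416. Further gibberellin genes were in the PI table alone: GAI, which encodes a DELLA repressor, with 33.4, and GA2OX4, which encodes an enzyme that inactivates gibberellin, with 67.3. The cytokinin genes were LOG7, of cytokinin activation, with 62.2 for PI, and ARR4, a response regulator, with 30.5 for AP3. In the auxin list, the transporter gene ABCB19 had 60.7 for PI alone. Apart from EIN2 and GID1C the hormone genes named here lay below the medians of their peak lists.

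Polarity and boundary genes gave 2 of 27, LSH2 and the YABBY gene YAB5 (68.9 for PI), and the growth list 1 of 29, TCP24 (77.3 for PI), which restrains leaf growth. The meristem list gave 3 of 35: PRS (50.5), a WUSCHEL-related homeobox gene of lateral organ margins, and BLH1 (75.9), a BELL homeobox gene, for PI alone, and the receptor kinase gene ERECTA (ER, 37) for AP3 alone. Chromatin and silencing gave 2 of 43, DCL4 (AT5G20320), a Dicer-like gene of small RNA production, with 119 for PI and 66.3 for AP3, and HAC1, a histone acetyltransferase gene, with 88.6 for AP3 alone. Photosynthesis and housekeeping gave 2 of 32, UBQ10 (48.3) and TUA2 (30.5), a polyubiquitin and an alpha-tubulin gene, both for AP3 alone. That list had 3 listed targets in all.

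**Figure D5:**
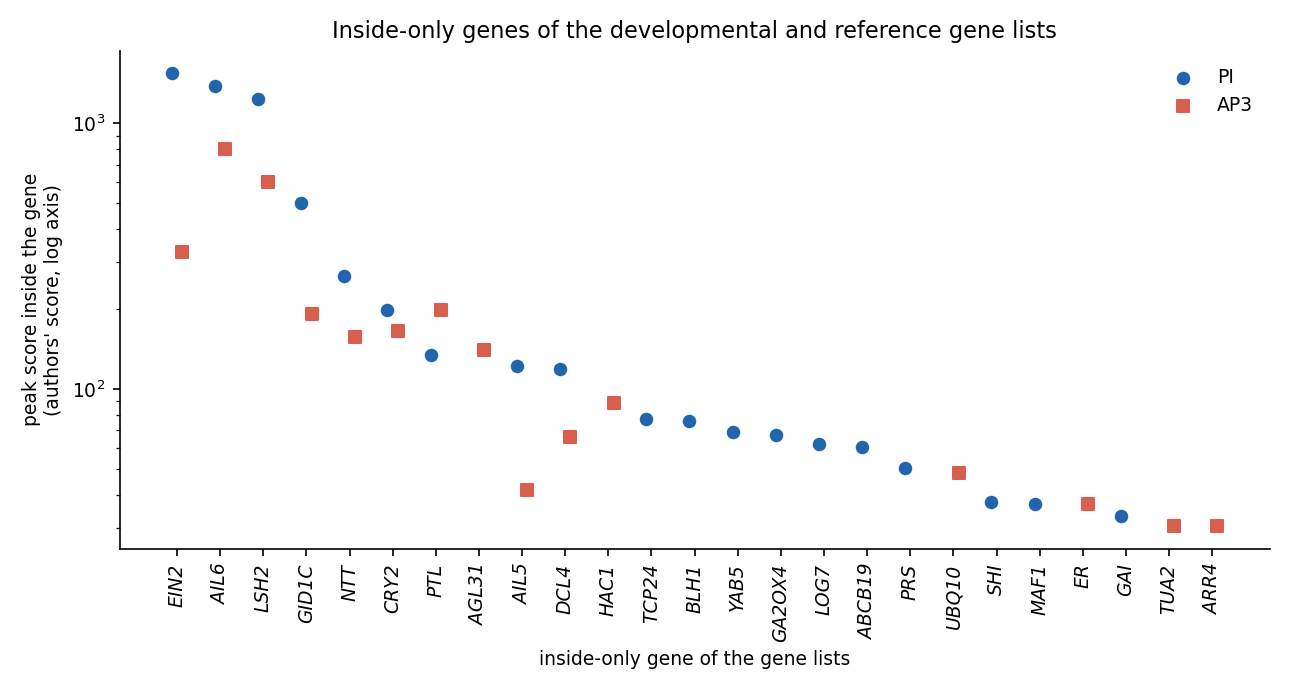
Peak score inside the gene (y axis, authors' score, log axis) for PI and AP3 at the inside-only genes of the gene lists that are reported here (x axis, ordered by the higher score). Genes with both points include EIN2, AIL6, LSH2 and GID1C at the upper end; AGL31 is the sole gene with a single point above 100.

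Some gene families had several inside-only members. They were picked after the values were seen, by terms in the authors' annotation that can miss relatives, and are given as values. Over all listed loci 16.9% were inside-only. Of 5 listed genes grouped as AINTEGUMENTA-like, 4 were inside-only and in both tables. These were AIL6, AIL5, AIL7 (39.9 for PI and 39 for AP3) and WRI4 (102 and 44.2). WRI4 is annotated as a putative ovule development protein and is not one of the AIL genes. PLT1, a relative that maintains root stem cells, was listed for PI through a peak 2000 to 3000 bp upstream (329). Of 4 WIP zinc finger genes, NTT, WIP4 (176 and 44.4) and WIP5 (40.5 for PI) were inside-only, and DOT5 was listed downstream. Of 7 indeterminate-domain zinc finger genes found by the terms 3 were inside-only, IDD4 (372 and 149), IDD5 (208 and 122) and AT1G14580 (89.1 for PI). The terms missed JKD, a relative that was also inside-only (33.9 for PI). IDD7, IDD1, IDD12 and IDD14 had scores upstream, and IDD1 downstream too. Of 5 Pumilio genes, which encode RNA-binding proteins, 4 were inside-only, led by PUM9 (434 and 175). Terms for basic helix-loop-helix proteins were found at 23 loci, of which 9 were inside-only. AT3G21330 had 526 and 134 and bHLH071 had 184 and 226.

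The highest inside-only loci of a single table were otherwise of mixed kinds. For PI alone they were AT4G16750, a DREB-type ethylene response factor gene (330, chromosome 4, 9420793 to 9421273), AT4G33625 (259), AT2G35859 and FLA16 (231 each) and AT1G62050 (197). For AP3 alone they were AT1G27570, AGL31, emb2739 (135), a gene named for an embryo defect, AT4G38730 (103) and ATCSLA09 (97.3), a mannan synthase-type gene of the cell wall.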

How the data were processed

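PI-GFP and AP3-GFP ChIP-seq had 1 library each; a negative control was not analysed here. The genome build is TAIR10 and the tools listed are BWA 0.6.1 and SAMtools, per the submitters' processing notes. The peak caller was not given in the sources used here. The authors deposited, for each library, a peak list and a table of targets with a score, named Poisson per the file headers, whose unit and normalization are not stated. Read numbers were not analysed, so depth is unknown.

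The rule was applied to both tables with Python 3.11.15 and pandas 2.3.3, and checked on simulated tables. Loci were tied to a peak by chromosome and identical score where that belonged to 1 peak. Peaks overlapped when they shared at least 1 bp. Shares carry exact Clopper-Pearson 95% intervals (SciPy 1.17.1). No test was run: each group has 1 library, and loci are not replicates. RefSeq (assembly TAIR10.1) gave symbols and biotypes for 519 of 529 loci, without coordinates. Sequences, motifs and positions in exons or introns were not analysed here.

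Named genes were the 10 highest in each table, genes of the 11 lists, the 5 highest listed in 1 table only for each table, the 3 highest and 3 lowest PI to AP3 ratios and the 3 widest peaks of each library; others were chosen after their values were seen. An item taken by these choices is not reported here. The loci, lists and rules were chosen with earlier results of these data known.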

Additional observations from a re-analysis of the deposited data

How the results depend on the processing

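Of 23 alternative values, 14 kept their value within the margin set for it (1.5 times for a count, the 95% interval for a share). The number of inside-only loci, 529, was 174 when a locus had to be in both tables and 210 when scores below the median of each peak list were set to 0. The share in both tables, 32.9%, was then 46.7%, against 56.3% of the other 1300 loci. The share of peaks also listed for another locus was 73.9% for PI and 83.2% for AP3 with repeated scores included. The share overlapping the other library was 43.7% for PI and 59.2% for AP3 with a reciprocal overlap of 50%, 59.8% for AP3 with maxima at most 100 bp apart, and 63.8% for PI without peaks below the median. Counting neighbouring loci with the same scores once, an alternative chosen after seeing the data, gave 517 loci and 33.1% in both tables.

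No paired analysis was possible because each group has 1 library. Without a genome and annotation of the build, the alternatives on CArG boxes, on the position within the gene and on links by annotation were not run. There is no replicate, the depth is unknown, and both lists share 1 control. The part of gene length was not tested.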

Other observations

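Words in the authors' annotation and symbols were used to sort the inside-only loci into broad groups, chosen after the values were seen. Terms of transcription factor families were found at 61 of 529 inside-only loci (11.5%), against 8.68% of the other 2603 listed loci. The words also took in a few genes of other function, such as GA2OX4. They missed some transcription factor genes, such as the basic helix-loop-helix gene AT3G20640. Loci with these terms made up 13.8% of inside-only loci in both tables (9.04 to 19.8). The shares were 15.8% of those listed by PI alone (10.7 to 22.1) and 5.43% of those listed by AP3 alone (2.64 to 9.77). At the other loci these shares were 9.47% (7.97 to 11.1), 10.3% (8.3 to 12.6) and 2.72% (1.37 to 4.82). Each of these intervals overlaps that of the inside-only loci. Beside the genes of the report, the group held ABI5, a bZIP gene of abscisic acid responses (663 for PI and 306 for AP3), BBX21, a B-box gene of light responses (289 and 85.7), and SPL2, a SQUAMOSA promoter-binding-like gene (182 and 70.6). NST1, a NAC gene of secondary walls in anthers, had 109 for PI alone.

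Genes of translation, histones, tubulin, polyubiquitin and chaperones were distributed the other way. They numbered 16 inside-only loci, of which 2 were in both tables (1.15%), 1 in the PI table alone (0.585%) and 13 in the AP3 table alone (7.07%, 3.82 to 11.8). At the other loci the shares were 1.45%, 1.6% and 2.72%. The last had an interval of 1.37 to 4.82, which overlaps that of the inside-only loci listed by AP3 alone. The 13 had AP3 scores of 28.5 to 54.8, all below the median of the AP3 list, and included UBQ10, TUA2, the elongation factor genes LOS1 (54.8) and AT5G60390 (50.7), and the histone genes AT3G27360 (31.5), AT5G59970 (33.8) and HTA2 (32.6). Many genes of such kinds are highly expressed in plant cells, though expression was not measured here. Values of the negative control were not analysed here, and a part of expression level or of the control in these peaks was not tested. The words for this group also took in RAN2, a RAN GTPase gene, and RACK1B, which was counted under the kinase terms too. Kinase terms were found at 20 inside-only loci (3.78%, against 3.27% of the other loci), and 13 of them were listed by AP3 alone. These 13 made up 7.07% (3.82 to 11.8) of inside-only loci listed by AP3 alone. The share at other loci listed by AP3 alone was 2.72% (1.37 to 4.82), an interval that overlaps it. Pentatricopeptide repeat terms, of organelle RNA processing, were found at 6 inside-only loci (1.13%, against 1.04% of the other loci). All 6 were listed by AP3 alone (3.26%, 1.21 to 6.96, against 1.24%, 0.403 to 2.86, of the other loci listed by AP3 alone), with scores of 28.1 to 36.8. Transporter terms were found at 17 (3.21%, against 1.88% of the other loci). Of these, 10 were listed by PI alone, among them AAP1 (106). Their share of inside-only loci listed by PI alone was 5.85% (2.84 to 10.5), and the share at other loci listed by PI alone was 2.7% (1.7 to 4.06), an interval that overlaps it.

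Most inside-only loci, 505, were protein-coding genes. MIR172a, which encodes a microRNA that represses AP2-type genes, had 132 for PI alone, and TAS1A, a source of trans-acting small RNAs, had 88.8 for PI alone. There were 9 long non-coding RNA loci. The inside-only loci were spread over the genome, at 16.2% to 17.9% of listed loci on each of the 5 chromosomes.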
